A study of Mus musculus with 4 samples.

Results

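Cytochrome c oxidase, complex IV of the mitochondrial respiratory chain, was followed through 10 of its nuclear subunit genes: Cox4i1, Cox5a, Cox5b, Cox6a1, Cox6b1, Cox6c, Cox7a1, Cox7a2, Cox7a2l and Cox7c. They are 10 of the 11502 gene symbols in the deposited RNA-Seq table, and all 10 passed the filter on low values, as did 10604 symbols in all. The set was chosen by name after the levels in these same 4 libraries, and the ratio of Cox7a1 to Cox7a2, were known. The values below are therefore a description of the libraries and carry no test.

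The RNA-Seq libraries were made from HT-22, a line of immortalized neurons of the mouse hippocampus. The Ctrl cells carried a negative control lentivirus and are labelled wild type, whereas the PGC-1α cells carried a lentivirus that overexpresses PGC-1α, and both were selected with puromycin. The Ctrl+OGD and PGC-1α+OGD cells were the same kinds of cells after oxygen and glucose deprivation (OGD), 2 h in medium free of serum and glucose under 5% CO2 and 95% N2, followed by 24 h of normal culture. There was 1 library per group, so no value has a replicate error. PGC-1α is a coactivator of transcription encoded by Ppargc1a, and the comparisons ask how its overexpression and OGD bear on the levels of the subunit genes.

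Complex IV takes electrons from cytochrome c, passes them to oxygen and pumps protons across the inner membrane. Its catalytic core is made of subunits encoded by mitochondrial DNA, and the nuclear subunits surround this core, where they stabilise the enzyme, join its monomers and tune its activity. Several nuclear subunits come in isoforms from separate genes, of which one is used in most tissues and another mainly in heart and skeletal muscle. PGC-1α is known as an activator of genes of mitochondrial respiration, in part through the factors ERRα, NRF1 and GABP.

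Levels are given as FPKM, which divides the fragments of a transcript by its length and by the size of the library, although the unit is not named in the sources used here. The transcripts of a gene were summed, a fold change is a difference of log2(FPKM + 1), and genes that differed at least 1.5-fold were counted as higher or lower. The column totals lay between 331892 and 353381 FPKM, and the number of reads is unknown, so no counting interval can be given. Ppargc1a had 0.900 FPKM in Ctrl, 35.1 in PGC-1α, and 0.103 in Ctrl+OGD against 8.41 in PGC-1α+OGD. It was above both controls in both overexpressing libraries, where transcripts of the virus and of the cells cannot be told apart. Of 11 neuronal markers, 3 had values here (Syp, Camk2a and Eno2) with summed levels between 5.62 and 9.51 FPKM, and Rbfox3, Map2, Tubb3 and Snap25 had none. In bulk RNA, fewer cells expressing a gene and less of its RNA per cell cannot be told apart.

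The clearest difference lay in the COX7A subunit, which sits at the edge of the complex and has a muscle isoform, Cox7a1, and an isoform of most tissues, Cox7a2. On GRCm38, Cox7a1 (ENSMUSG00000074218) is a plus-strand gene at chr7:30184144-30186078, and Cox7a2 (ENSMUSG00000032330) a minus-strand gene at chr9:79755361-79759878. Their coding sequences, joined from the GENCODE M21 coding exons of the transcripts Cox7a1-201 and Cox7a2-201, are shown because the ratio of the isoforms depends on telling their reads apart. They run 5′ to 3′, and capitals mark the bases that are not identical in the alignment of the pair.
Cox7a1: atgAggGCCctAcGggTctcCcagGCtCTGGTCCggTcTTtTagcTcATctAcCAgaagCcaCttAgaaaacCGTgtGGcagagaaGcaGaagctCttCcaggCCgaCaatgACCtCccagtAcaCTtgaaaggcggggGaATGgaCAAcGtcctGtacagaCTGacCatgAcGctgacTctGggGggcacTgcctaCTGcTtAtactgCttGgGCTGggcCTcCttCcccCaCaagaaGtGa
Cox7a2: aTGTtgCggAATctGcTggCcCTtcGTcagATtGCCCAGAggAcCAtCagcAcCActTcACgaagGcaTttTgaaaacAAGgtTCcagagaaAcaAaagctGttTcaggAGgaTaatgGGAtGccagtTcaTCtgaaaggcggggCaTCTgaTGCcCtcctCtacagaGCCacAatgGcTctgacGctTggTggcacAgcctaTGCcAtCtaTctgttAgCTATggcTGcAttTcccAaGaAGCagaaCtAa
The sequences are 243 and 252 bases long, and 156 of 242 aligned bases (64.5%) were identical. The longest run shared without a difference was 12 bases. No transcript of another gene matched either gene at 95% identity or more over at least 100 bases.

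Cox7a1 had 2.92 FPKM in Ctrl, 24.5 in PGC-1α, and 2.95 in Ctrl+OGD against 11.8 in PGC-1α+OGD. Both PGC-1α libraries lay above both control libraries, and the control libraries lay close together. The FPKM values differed 8.38-fold between PGC-1α and Ctrl and 4.0-fold between PGC-1α+OGD and Ctrl+OGD, which is 2.70 and 1.70 on the log2(FPKM + 1) scale. Cox7a1 ranked 13th and 29th from the top of the 10604 genes in these comparisons. Between Ctrl+OGD and Ctrl the log2 fold change was 0.01. This value turned sign with upper quartile scaling, with columns rescaled to a common total and with the highest transcript in place of the sum. After a trend in transcript length and GC content was removed, it was -0.23. Between PGC-1α+OGD and PGC-1α the log2 fold change was -0.99, so that Cox7a1 was counted as lower. It was the only member counted as lower in any of the 4 comparisons.

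Cox7a2 had 66.6 FPKM in Ctrl, 81.6 in PGC-1α, and 76.3 in Ctrl+OGD against 81.5 in PGC-1α+OGD. Its libraries spanned a narrow range with Ctrl at the bottom, and its log2 fold change with PGC-1α was 0.29 without OGD and 0.09 with OGD. Cox7a2l (ENSMUSG00000024248, minus strand, chr17:83501918-83517330), a relative of the COX7A isoforms that takes part in joining complex III with complex IV, had 107 FPKM in Ctrl, 105 in PGC-1α, and 98.6 in Ctrl+OGD against 102 in PGC-1α+OGD. Its log2 fold changes of -0.033 and 0.053 with PGC-1α, without and with OGD, lay near 0, and the sign of the first turned with median ratio scaling.

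The ratio of Cox7a1 to Cox7a2 FPKM was 0.0439 in Ctrl, 0.30 in PGC-1α, and 0.0387 in Ctrl+OGD against 0.145 in PGC-1α+OGD. As a share of the sum of the pair, Cox7a1 made up 4.21%, 23.1%, 3.72% and 12.6% in the same order. Cox7a2 was the more abundant isoform in each library. The ratio differed 6.84-fold between PGC-1α and Ctrl and 3.75-fold between PGC-1α+OGD and Ctrl+OGD. The sum of the pair was 69.5 FPKM in Ctrl, 106 in PGC-1α, and 79.2 in Ctrl+OGD against 93.3 in PGC-1α+OGD. Of the Cox7a1 transcripts, Cox7a1-201 held between 83.3% and 97.3% of the gene's FPKM, with 2.59, 23.1, 2.46 and 11.5 FPKM in the 4 libraries.

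The COX6A subunit, which lies where the monomers of complex IV meet, also has an isoform of most tissues, Cox6a1, and a muscle isoform, Cox6a2. Cox6a1 (ENSMUSG00000041697, minus strand, chr5:115345642-115348981) had 148 FPKM in Ctrl, 218 in PGC-1α, and 174 in Ctrl+OGD against 184 in PGC-1α+OGD. Its log2 fold change for PGC-1α vs Ctrl was 0.56, just under 1.5-fold, and reached 0.59 with median ratio scaling. Cox6a2 (ENSMUSG00000030785, minus strand, chr7:128205435-128206387), which is not among the 10 genes, had 91.9, 45.7, 71.8 and 64.1 FPKM in the same order. It was counted as lower in PGC-1α vs Ctrl, with a log2 fold change of -0.99, and was at -0.16 in PGC-1α+OGD vs Ctrl+OGD. As a share of the sum of Cox6a1 and Cox6a2, Cox6a2 made up 38.3% in Ctrl, 17.3% in PGC-1α, and 29.2% in Ctrl+OGD against 25.8% in PGC-1α+OGD. The muscle isoform thus had a higher share with PGC-1α in the COX7A pair and a lower share in the COX6A pair. Exons of Cox6a2 overlap those of Itgad on the opposite strand, which had no values here. Whether the counting used strand is not given in the sources used here. Of 12 other skeletal muscle genes, 4 had values here, with a summed level of 11.0 FPKM in Ctrl, 11.2 in PGC-1α, and 12.3 in Ctrl+OGD against 7.20 in PGC-1α+OGD. Ckm, Myh7, Myog and Mb were among those with no values here.

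**Figure D1:**
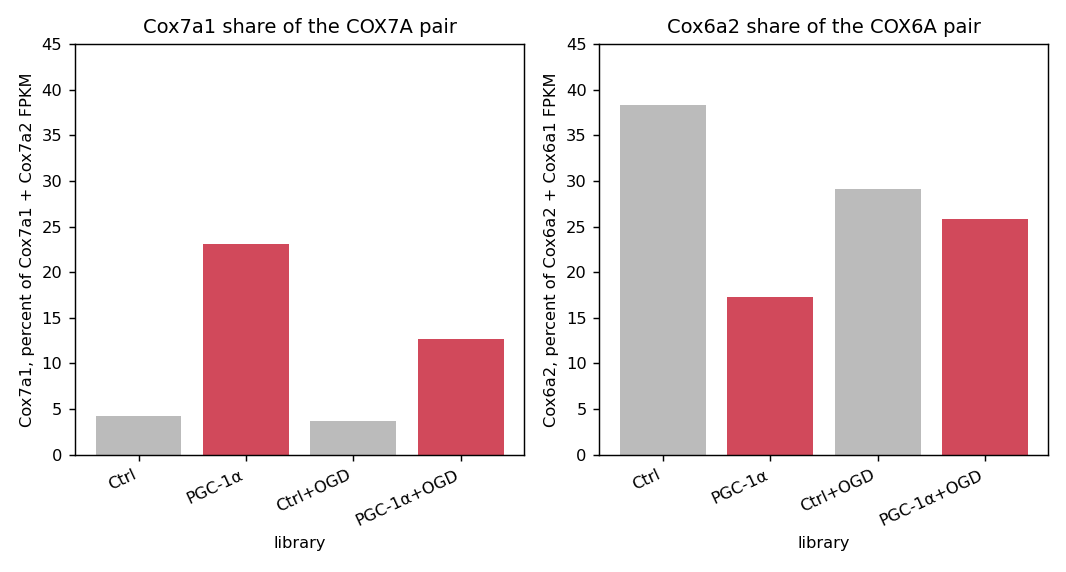
Share of the muscle isoform in the summed FPKM of an isoform pair, in percent, in each of the 4 libraries (bars, 1 library each; grey, control virus; red, PGC-1α virus). On the left, Cox7a1 made up 23.1% of the pair in PGC-1α against 4.21% in Ctrl; on the right, Cox6a2 made up 17.3% against 38.3%.

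Cox5a (ENSMUSG00000000088, plus strand, chr9:57521274-57532426), which encodes a subunit on the matrix side of the complex, was the other member past 1.5-fold. It had 23.8 FPKM in Ctrl, 60.2 in PGC-1α, and 80.0 in Ctrl+OGD against 66.0 in PGC-1α+OGD. The Ctrl library stood below the other 3 libraries, which lay within 60.2 to 80.0 FPKM. Its log2 fold changes were 1.31 for PGC-1α vs Ctrl, 1.71 for Ctrl+OGD vs Ctrl, -0.27 for PGC-1α+OGD vs Ctrl+OGD and 0.13 for PGC-1α+OGD vs PGC-1α. The first 2 of these comparisons share the Ctrl library, so the low value of that library enters both. Cox5a ranked 81st from the top of all genes in PGC-1α vs Ctrl and 27th in Ctrl+OGD vs Ctrl. It has 1 transcript in the table, and its exons overlap Gm26631 on the opposite strand, which had no values here.

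Cox5b (ENSMUSG00000061518, plus strand, chr1:36691449-36693681), the zinc-binding subunit on the matrix side, had 152 FPKM in Ctrl, 217 in PGC-1α, and 211 in Ctrl+OGD against 247 in PGC-1α+OGD. Against Ctrl, its log2 fold change was 0.51 in PGC-1α and 0.47 in Ctrl+OGD, so it did not reach 1.5-fold where Cox5a did. The ratio of Cox5a to Cox5b FPKM was 0.157 in Ctrl, 0.278 in PGC-1α, and 0.379 in Ctrl+OGD against 0.267 in PGC-1α+OGD. A transcript of Gm11273 matches Cox5b over 390 bases at 99.2% identity and had 16.5 to 18.7 FPKM, so reads of Cox5b may be divided between them.

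Cox4i1 (ENSMUSG00000031818, plus strand, chr8:120668222-120674207), the largest nuclear subunit and a site of regulation by adenine nucleotides, had 173 FPKM in Ctrl, 244 in PGC-1α, and 191 in Ctrl+OGD against 211 in PGC-1α+OGD. Its log2 fold change with PGC-1α was 0.49 without OGD and 0.14 with OGD. Between 88.8% and 95.8% of its FPKM lay in the transcript Cox4i1-201. The minor transcript Cox4i1-205 had 5.66 and 20.2 FPKM in Ctrl and PGC-1α, and 19.5 and 6.73 in the same cells with OGD, so that it was high in a pair of libraries that share neither treatment. A stretch of 154 bases of this transcript is also part of Emc8 on the opposite strand, which had 4.67 FPKM in Ctrl and 8.84 to 9.15 in the other libraries. Cox4i2, the isoform known from lung and from low oxygen, lay between 0.180 and 0.719 FPKM and did not pass the filter.

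Cox6b1 (ENSMUSG00000036751, minus strand, chr7:30616861-30626151), a subunit on the side of the intermembrane space where cytochrome c docks, had 80.6 FPKM in Ctrl, 114 in PGC-1α, and 114 in Ctrl+OGD against 119 in PGC-1α+OGD. Ctrl was the lowest library and the other 3 lay close together. Its log2 fold change was 0.49 both for PGC-1α vs Ctrl and for Ctrl+OGD vs Ctrl. Cox7c (ENSMUSG00000017778, minus strand, chr13:86044816-86046904), a small subunit that spans the membrane, had 147 FPKM in Ctrl, 190 in PGC-1α, and 201 in Ctrl+OGD against 214 in PGC-1α+OGD, again with Ctrl at the bottom. Against Ctrl, it was at a log2 fold change of 0.37 in PGC-1α and 0.45 in Ctrl+OGD.

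Cox6c (ENSMUSG00000014313, minus strand, chr15:35925886-35938246), another membrane-spanning subunit, had 285 FPKM in Ctrl, 289 in PGC-1α, and 274 in Ctrl+OGD against 300 in PGC-1α+OGD. It was the most abundant member in each library. Its log2 fold change of 0.02 for PGC-1α vs Ctrl was near 0 and turned sign when the columns were rescaled to a common total. Cox6c and Cox7a2l were the members that did not have Ctrl as their lowest library, and both were lowest in Ctrl+OGD. The other 8 members were lowest in Ctrl, which was the lowest library for 28.2% of all genes tested. That share covers genes of any level. Of the 1436 genes with a mean over 50 FPKM, 1031 lay above 0 in Ctrl+OGD vs Ctrl. Cox7a1 is among the 8 by 2.92 FPKM in Ctrl against 2.95 in Ctrl+OGD, an order that turned under settings given above. Processed pseudogenes of at least 95% identity match stretches of Cox6c, Cox7a2l and Cox7c, and had no values here.

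**Figure D2:**
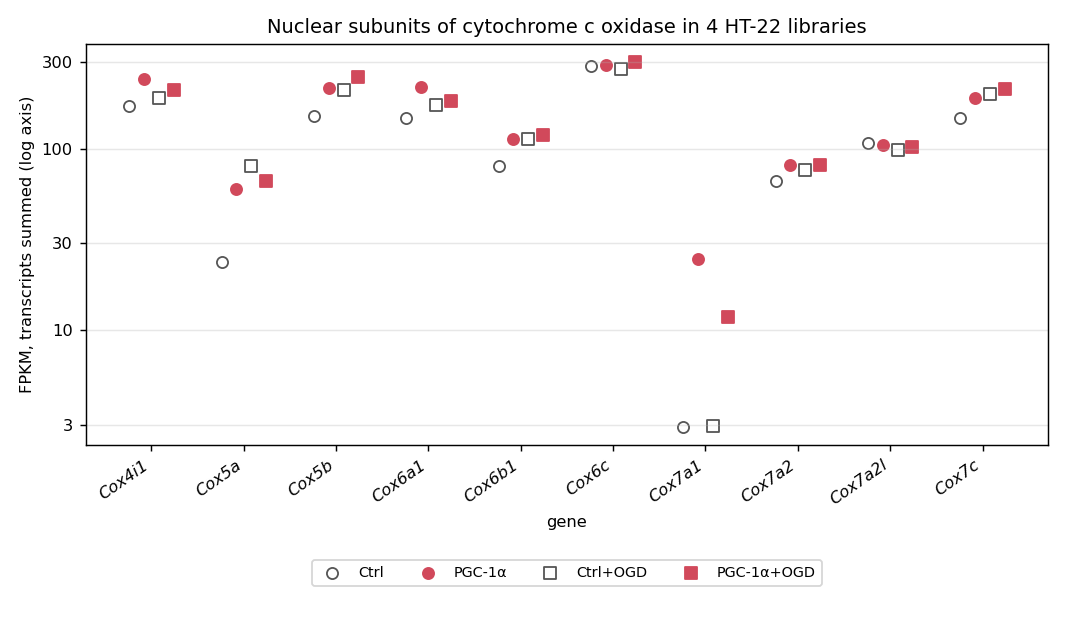
FPKM of the 10 nuclear subunit genes (log axis, transcripts summed) in the 4 libraries, 1 point per library; circles, no OGD; squares, OGD; open, control virus; red, PGC-1α virus. Cox7a1 is the lowest gene in each library and is parted by virus, from 2.92 and 2.95 FPKM in the controls to 24.5 and 11.8 with PGC-1α, while Cox5a is low only in Ctrl at 23.8.

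The order of the members differed little between libraries. Cox7a1 was the lowest in each, with 0.247% of the members' summed FPKM in Ctrl and 1.59% in PGC-1α. Cox4i1, Cox5b, Cox6a1 and Cox7c took ranks 2 to 5 in each library and changed places among themselves. In Ctrl they lay between 147 and 173 FPKM, a gap whose precision is unknown. Among the other 9 members, the highest exceeded the lowest 12-fold in Ctrl, 4.8-fold in PGC-1α, and 3.59-fold in Ctrl+OGD against 4.54-fold in PGC-1α+OGD. Cox5a was the lowest of these 9 genes except in Ctrl+OGD, where Cox7a2 was. The sum of the 10 genes was 1186 FPKM in Ctrl, 1543 in PGC-1α, and 1423 in Ctrl+OGD against 1536 in PGC-1α+OGD, or 0.357%, 0.456%, 0.403% and 0.442% of the column total.

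In PGC-1α vs Ctrl, 2 of the 10 members were counted as higher, Cox7a1 and Cox5a, and 0 as lower, and with median ratio scaling 3 were higher, Cox6a1 included. Of all genes tested, 4.91% were higher and 5.63% lower. The median log2 fold change of the members was 0.49, beside -0.03 for all genes and 0.06 for the 1436 genes with a mean over 50 FPKM. Above 0 lay 9 of the 10 members, beside 4853 of all 10604 genes and 857 of the 1436 genes over 50 FPKM. The count of members became 10 with median ratio scaling and 8 with columns rescaled to a common total. Apart from Cox7a1 and Cox5a, the members lay between -0.033 and 0.56.

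In PGC-1α+OGD vs Ctrl+OGD, 1 member was counted as higher, Cox7a1, and 0 as lower, where 3.08% of all genes were higher and 3.82% lower. The median of the members was 0.09, beside -0.01 for all genes and -0.04 for genes over 50 FPKM. After a trend in transcript length and GC content was removed, the median of the members was 0.20. Above 0 lay 4994 of all 10604 genes and 545 of the 1436 genes over 50 FPKM. Again 9 of 10 members lay above 0, but 8 of these 9 were at 0.23 or less. Cox5a was the member below 0.

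In Ctrl+OGD vs Ctrl, 1 member was counted as higher, Cox5a, and 0 as lower, while 6.2% of all genes were higher and 7.71% lower. The members had a median of 0.22, beside -0.02 for all genes and 0.15 for genes over 50 FPKM. Above 0 lay 8 of the 10 members, beside 5086 of all 10604 genes and 1031 of the 1436 genes over 50 FPKM. The members are short, 399 to 1076 bases against a median of 2739 for all genes, and shorter genes lay higher in this comparison, with a slope of -0.09 per doubling of length. With the trend in length and GC content removed, the median of the members was 0.034 and Cox5a was at 1.56. Rescaling the columns to a common total moved the median of all genes in this comparison to -0.11 and that of the members to 0.13.

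In PGC-1α+OGD vs PGC-1α, 0 members were higher and 1, Cox7a1, was lower, where 3.82% of all genes were higher and 5.22% lower. The median was 0.03, and apart from Cox7a1 the members lay between -0.25 for Cox6a1 and 0.19 for Cox5b. Each library enters a pair of the 4 comparisons, so their values are not independent of each other.

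**Figure D3:**
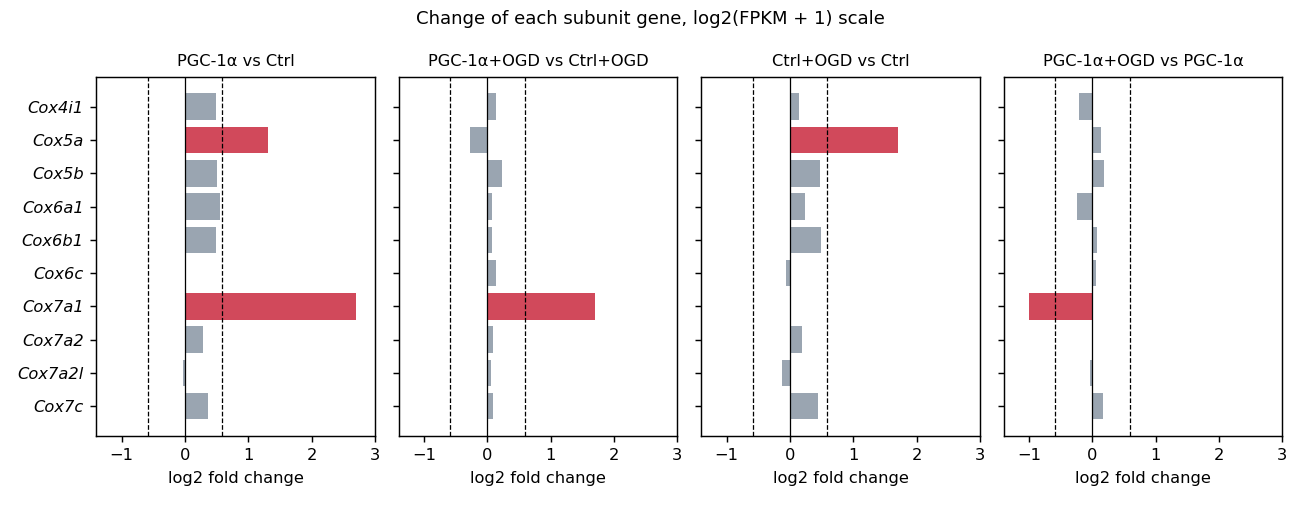
Log2 fold change of each of the 10 members, on the log2(FPKM + 1) scale, in the 4 comparisons (1 panel each; dashed lines, 1.5-fold; red bars, past 1.5-fold). Cox7a1 passes in 3 panels (2.70, 1.70 and -0.99) and Cox5a in 2 (1.31 and 1.71), and the other 8 members in none.

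The PGC-1α fold change with OGD minus that without OGD was below 0 for 8 of the 10 members, with a median of -0.32 beside 0.01 for all genes and -0.10 for genes over 50 FPKM. It was -1.58 for Cox5a, -1.0 for Cox7a1, -0.49 for Cox6a1 and -0.42 for Cox6b1. Cox6c at 0.11 and Cox7a2l at 0.09 were the members above 0. The other respiratory complexes had similar values. Below 0 lay 34 of 36 nuclear complex I subunits, with a median of -0.26. So did 29 of 30 nuclear subunits of complexes II and III and ATP synthase, with a median of -0.31. Of all genes, 5228 of 10604 lay below 0. With the trend in length and GC content removed from both comparisons, 8 members were still below 0, and the median was -0.20. With 1 library per group this difference was not tested. The Ctrl value enters it with a plus sign, so a low Ctrl value alone makes it lower. The 8 members below 0 were the same 8 that had Ctrl as their lowest library. The part of that single library in these values was not tested. The Ppargc1a level itself was lower in PGC-1α+OGD than in PGC-1α, with a log2 fold change of -1.94, and its part in these values was not tested.

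The other nuclear subunits of complex IV were examined from a list of 10 genes, of which 7 had values here and 5 passed the filter. Cox7b, which spans the membrane, had 154 FPKM in Ctrl, 225 in PGC-1α, and 191 in Ctrl+OGD against 239 in PGC-1α+OGD. Cox8a, the smallest subunit, had 288, 390, 318 and 360 FPKM in the same order. Ndufa4, once assigned to complex I and now regarded as a subunit of complex IV, had 102, 147, 148 and 145 FPKM. These 3 genes had their lowest value in Ctrl, and their log2 fold changes for PGC-1α vs Ctrl were 0.54, 0.44 and 0.53, close to the median of the 10 members. Ndufa4l2, the paralog of Ndufa4 known to be induced by hypoxia, had 10.8, 8.25, 9.04 and 2.70 FPKM and was counted as lower at -1.44 between PGC-1α+OGD and Ctrl+OGD. Its exons overlap Shmt2 on the opposite strand, which was more abundant. Shmt2 had 45.2 FPKM in Ctrl, 64.5 in PGC-1α, and 90.2 in Ctrl+OGD against 88.6 in PGC-1α+OGD. Cox7b2 lay between 0.267 and 1.38 FPKM and did not pass the filter, while Cox6b2, Cox8b and Cox8c had no values here.

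The mitochondrially encoded core subunits had higher FPKM than the nuclear ones, in libraries made from poly(A) RNA. The gene mt-Co1, which encodes the subunit that binds oxygen, had 2398 FPKM in Ctrl, 2673 in PGC-1α, and 2627 in Ctrl+OGD against 2962 in PGC-1α+OGD. Its neighbours mt-Co2, which receives the electrons of cytochrome c, and mt-Co3 had 1002 and 639 FPKM in Ctrl and 1301 and 789 in PGC-1α. The log2 fold changes of the 3 genes for PGC-1α vs Ctrl were 0.16, 0.38 and 0.30, and none passed 1.5-fold in any comparison. Cycs, which encodes somatic cytochrome c, the electron donor of the complex, had 56.7 FPKM in Ctrl, 107 in PGC-1α, and 103 in Ctrl+OGD against 130 in PGC-1α+OGD. It was counted as higher in PGC-1α vs Ctrl (0.90) and in Ctrl+OGD vs Ctrl (0.85), so, like Cox5a, it was low in Ctrl. Hccs, which attaches haem to cytochrome c, was at 0.36 in PGC-1α vs Ctrl, and the testis form Cyct did not pass the filter.

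Of 27 assembly factors of complex IV, 26 were tested. In PGC-1α vs Ctrl, 5 were counted as higher and 1 as lower, beside 4.91% and 5.63% of all genes. Their median was 0.25, beside -0.03 for all genes. Cox11 (0.61), which delivers copper to the core, Coa6 (0.61), which also acts in copper delivery, Cmc2 (1.15), Tmem177 (0.76), which acts on the maturation of the subunit encoded by mt-Co2, and Higd1a (0.72) were higher. Pet100 was lower, with 26.3 FPKM in Ctrl, 10.3 in PGC-1α, and 20.2 in Ctrl+OGD against 27.3 in PGC-1α+OGD, so that the PGC-1α library stood below the rest. Exons of Pet100 overlap those of Pcp2 on the opposite strand, which had no values here. In PGC-1α+OGD vs Ctrl+OGD, 0 assembly factors were higher and 2, Surf1 and Cmc1, were lower, and these were named after their values were seen. Of all genes, 3.08% were higher and 3.82% lower there. The median of the assembly factors was 0.04. Among 17 regulators tested, Ppargc1a (4.25) and Esrra (0.77), which encodes ERRα, were counted as higher in PGC-1α vs Ctrl. Esrra had 4.73 FPKM in Ctrl, 8.75 in PGC-1α, and 5.13 in Ctrl+OGD against 7.30 in PGC-1α+OGD, so both PGC-1α libraries lay above both controls, as they did for Cox7a1. In PGC-1α+OGD vs Ctrl+OGD the regulators counted as higher were Ppargc1a (3.09) and Gabpa (0.61), a subunit of GABP, while Esrra was at 0.44. Without OGD, Gabpa was at -0.10 and Nrf1 at -0.19, and Nrf1 was at -0.07 with OGD.

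The nuclear subunits of the other respiratory complexes were set beside those of complex IV. In PGC-1α vs Ctrl, 4.91% of all genes were higher and 5.63% lower. Of 36 complex I subunits, 5 were higher and 0 lower, with a median of 0.40, and all 36 lay above 0. Of 30 subunits of complexes II and III and ATP synthase, 11 were higher and 0 lower, with a median of 0.54. The median of 0.49 for the 10 members lay between these values. With OGD, the medians were 0.14 for complex I and 0.23 for complexes II and III and ATP synthase, beside 0.09 for the members. No gene of these lists had a log2 fold change as large as the 2.70 of Cox7a1. The highest was 1.18 in complex I and 1.09 in complexes II and III and ATP synthase. Cox7a1 was chosen with its values known, so this order is a description only. In Ctrl, Cox7a1 had 2.92 FPKM, whereas the lowest of the listed subunits, Ndufb2, had 9.58.

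**Figure D4:**
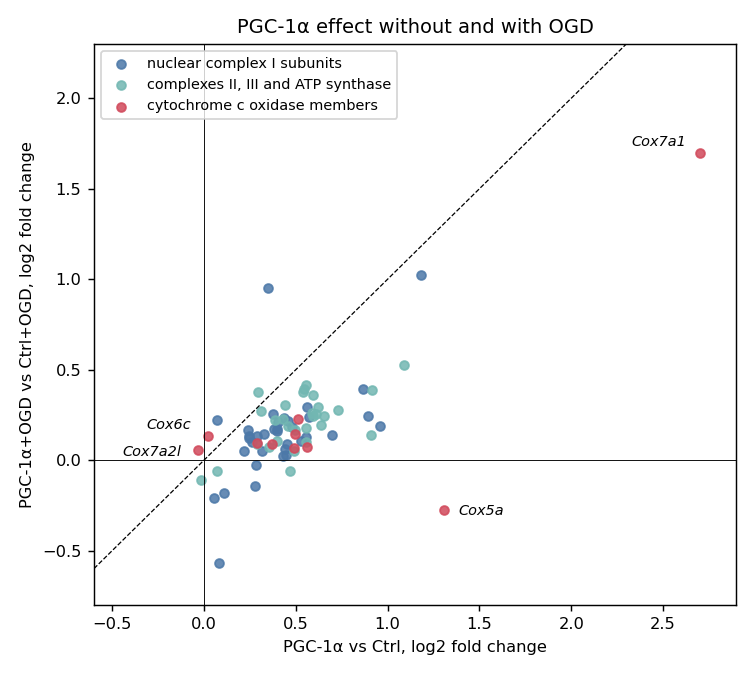
Log2 fold change of PGC-1α without OGD (x axis) and with OGD (y axis), on the log2(FPKM + 1) scale, for the 10 members (red) and the nuclear subunits of complex I (blue) and of complexes II and III and ATP synthase (green); 1 point per gene, dashed line of equal values. Cox7a1 lies far to the right at 2.70 and 1.70, and Cox5a lies below 0 on the y axis at -0.27 with 1.31 on the x axis.

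The genes whose pattern over the 4 libraries was most like that of Cox7a1, by Euclidean distance between log2(FPKM + 1) values centred on their mean, were Golga2, Mrps34, Pigq, Pcdhga12 and Recql5, with distances from 0.62 to 0.93. Golga2, which encodes a Golgi matrix protein, had 11.6 FPKM in Ctrl, 48.6 in PGC-1α, and 11.4 in Ctrl+OGD against 40.5 in PGC-1α+OGD. Pcdhga12 and Recql5 were listed at 0 in both control libraries. For the sum of the other 9 members they were Kansl2, Mccc1, Uqcr11, Mrs2 and Dnmt1, all at a distance of 0.03.

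Promoter windows of 300 bases, 250 before and 50 after the start, were taken from RefSeq on GRCm38.p6 and matched 8 of the 10 members by symbol. The entries of Cox4i1 and Cox6c are missing. The bases before the GENCODE gene start of the COX7A pair are shown because the ratio of this pair is described above, and capitals mark CpG dinucleotides. The stretches are chr7:30183921-30184143 on the plus strand for Cox7a1 and chr9:79759879-79760103 on the minus strand for Cox7a2, written 5′ to 3′ of the gene.
Cox7a1: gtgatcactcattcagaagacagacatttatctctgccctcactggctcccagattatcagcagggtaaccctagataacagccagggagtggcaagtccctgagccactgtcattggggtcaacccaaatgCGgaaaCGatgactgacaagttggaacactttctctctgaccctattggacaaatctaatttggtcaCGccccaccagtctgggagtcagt
Cox7a2: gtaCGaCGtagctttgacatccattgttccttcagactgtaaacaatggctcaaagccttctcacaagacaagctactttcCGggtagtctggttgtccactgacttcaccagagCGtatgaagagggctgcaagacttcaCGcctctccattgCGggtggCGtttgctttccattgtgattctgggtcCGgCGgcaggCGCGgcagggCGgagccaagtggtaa
The Cox7a1 stretch of 223 bases holds 3 CpG and the Cox7a2 stretch of 225 bases holds 12. Over the whole window Cox7a1 had 7 CpG, which is also the median of all 32851 windows, and the other 7 members with a window had 14 to 35. Cox5a had 35.

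Both strands of these windows were searched for motifs of factors known to act on respiratory genes, and a match is a description of letters only. The NRF1 motif occurred in 4.6% of all windows and in Cox6a1 alone among the 8 members. Its matches stand in capitals in the stretch before Cox6a1, chr5:115348982-115349208 on the minus strand.
Cox6a1: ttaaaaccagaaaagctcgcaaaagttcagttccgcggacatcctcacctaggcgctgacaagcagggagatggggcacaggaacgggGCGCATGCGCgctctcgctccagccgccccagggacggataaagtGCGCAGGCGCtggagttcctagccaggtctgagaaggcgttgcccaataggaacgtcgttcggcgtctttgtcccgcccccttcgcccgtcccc
The GABPA motif CCGGAAG was held by 8.86% of all windows, Cox6a1 and Cox6b1 among them. The SP1 motif GGGCGG was held by 35.7% of all windows and by Cox5a, Cox6a1, Cox7a2 and Cox7a2l. The MEF2 motif was found in 3.69% of all windows and in Cox5b. The ERRα motif AAGGTCA (4.72% of windows), the YY1 motif AAGATGGC (2.75%) and the CREB motif TGACGTCA (1.79%) matched 0 of the 8 members. The Cox7a1 window held none of the 7 motifs.

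**Figure D5:**
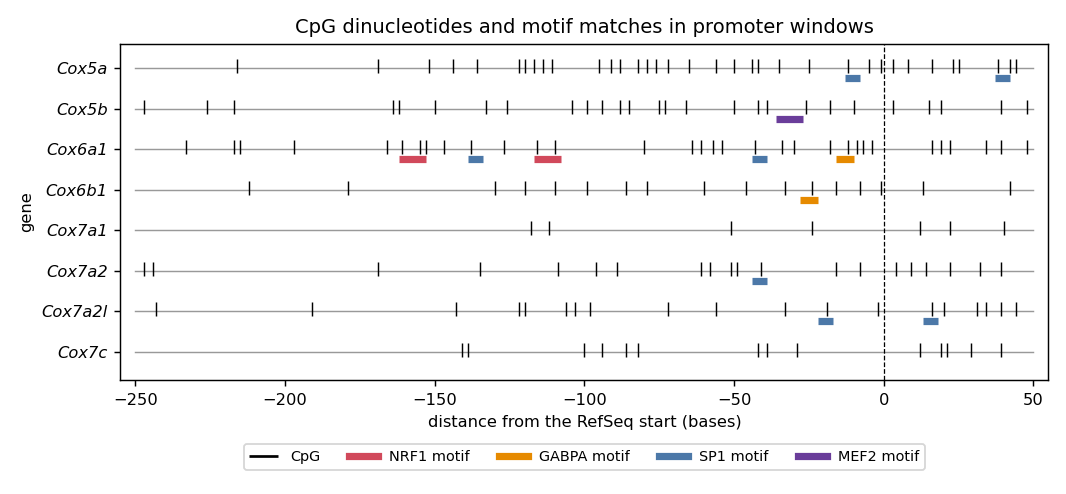
CpG dinucleotides (black ticks) and motif matches (coloured blocks, overlapping matches on both strands drawn once) by distance from the RefSeq start in bases for the 8 members with a window. Cox7a1 has the fewest CpG, 7, and no motif match, and Cox6a1 holds both NRF1 matches.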

How the data were processed

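RNA-Seq of 4 HT-22 libraries, 1 for each of the groups named in the labels, was analysed. Per the labels and methods, RNA was poly(A) enriched, prepared with a stranded kit and aligned by the authors to GRCm38 with HISAT2 2.1.0. The authors deposited 1 table of values per Ensembl transcript, which were taken as FPKM. The quantifier, its annotation and its use of strand are not given in the sources used here. Each transcript reached at least 0.500 FPKM in a library, and the depth is unknown. All columns of the table were used.

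Identifiers without version were matched to GENCODE M21 for 25822 of 25889 transcripts (99.7%), and the other 67 were left out. Transcripts were summed per symbol, transformed as log2(FPKM + 1) and kept where the 4 libraries averaged 1 FPKM or more. A fold change of at least 1.5 was counted. With 1 library per group there was no test. The members and lists were chosen with earlier results of these data known. Named genes were the members, other complex IV and cytochrome c genes, Ppargc1a, assembly factors and regulators past 1.5-fold in PGC-1α vs Ctrl, and the 5 genes most like Cox7a1 and most like the summed other members; any further gene named was chosen after its values were seen. In addition to the neuronal and muscle markers in the report, 2 of 5 astrocyte, 1 of 5 microglial and 1 of 5 oligodendrocyte markers had values, with summed levels of at most 5.62, 1.22 and 4.76 FPKM.

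Alternatives were pseudocounts of 0.1 and 0.01, no filter, a filter at a mean of 5, scaling by median ratios or by upper quartiles, columns rescaled to a common total, a fold of at least 2, the highest transcript, and protein-coding transcripts only. Removing a trend linear in log2 length and GC content, over 10598 genes, was chosen after seeing the data. With no replicate spread, a log2 value was called moved past 0.1. Similar sequences were sought with BLAST 2.17.0 and coding sequences aligned with biopython 1.88. Other work used pandas 2.3.3 with numpy 2.4.6 in Python 3.11.15, matplotlib 3.10.9 drew the figures, and the calculation was tested on simulated data.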

Additional observations from a re-analysis of the deposited data

Results flagged for a closer look

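The PGC-1α effect had opposite signs without and with OGD for Cox5a and Cox7a2l. For Cox5a the log2 fold change was 1.31 without OGD, where Ctrl was its lowest library, and -0.27 with OGD. For Cox7a2l it was -0.033 without OGD and 0.053 with OGD, both near 0. With 1 library per group, the difference was not tested for either gene.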

How the results depend on the processing

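No paired analysis was possible because each group had 1 library, and for the same reason no replicate could be left out. Over the 11 alternatives, 86 of 88 recomputed counts of members were equal to those reported. On the log2 scale, 145 of 160 medians, ratios and differences and 419 of 440 values of single members stayed within 0.1. No value counted past 1.5-fold turned sign. Many of these values could not differ. The members pass each filter and have only protein-coding transcripts, so the filter and protein-coding settings leave their values unchanged. A fold of at least 2 bears on counts alone. The ratio of Cox7a1 to Cox7a2 uses no pseudocount and column scaling cancels in it, so only the highest-transcript setting could change it. Ratios and differences were recomputed under fewer of the alternatives. The counts that differed were 3 members higher in PGC-1α vs Ctrl with median ratio scaling, as Cox6a1 passed 1.5-fold, and 0 lower in PGC-1α+OGD vs PGC-1α at a fold of at least 2, as Cox7a1 was at -0.99. With the trend in length and GC content removed, the median of the members was 0.20 in place of 0.09 for PGC-1α+OGD vs Ctrl+OGD and 0.034 in place of 0.22 for Ctrl+OGD vs Ctrl. Under the same setting the difference of the PGC-1α effect with and without OGD had a median of -0.20 and was -0.19 for Cox4i1, -1.47 for Cox5a, -0.30 for Cox6a1, -0.29 for Cox6b1, 0.24 for Cox6c, -0.81 for Cox7a1, -0.067 for Cox7a2 and -0.18 for Cox7c. With the highest transcript in place of the sum, the ratio of Cox7a1 to Cox7a2 was 0.0389 in Ctrl and 0.0322 in Ctrl+OGD, and that difference was -0.17 for Cox4i1 and -0.90 for Cox7a1. The depth is unknown, so the precision of each value is unknown too.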
